A study of Sus scrofa with 8 samples.

Results

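miR-122 was followed through small RNA-seq and RNA-seq libraries of pig liver. Its rows in the miRNA table were those whose name, after removal of the pig prefix ssc-, was miR-122 or began with miR-122-, and 3 of 888 rows met this rule: miR-122-5p, ssc-miR-122 and miR-122-3p. The livers came from 4 untreated and unrelated Yanan sows, 2 young ones at 180 days of age and 2 old ones at 8 years, and each liver gave 1 library of either kind. The study states that the young sows had never given birth and that the old sows were culled after many years of breeding. Age and reproductive history therefore cannot be told apart in any comparison below. The values were deposited per library and not pooled. With 2 livers per age, a two-sided exact permutation test cannot give a p below 0.333. The p-values of the fits across all features rest on the spread between these few sows. In these fits the variance of each feature is drawn towards that of the other features, so a p-value does not measure the spread of that feature alone.

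miR-122 is the miRNA for which the liver is best known. It is made in hepatocytes from its own noncoding gene, and its hairpin precursor is cut into a 5' arm and a 3' arm. The 5' arm is the guide strand that is loaded into Argonaute proteins and represses mRNAs with matching sites, among them genes of sugar and lipid metabolism and of cell growth. The 3' arm is the passenger strand and is usually discarded.

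The name ssc-miR-122 carried the reads of miR-122-5p a second time. The pair differed by 4 and 2 reads in young replicates 1 and 2 and by 1 and 10 reads in old replicates 1 and 2. They were therefore counted as a single row, the 5' arm, as were 4 other pairs of names, which left 883 names and 2 rows of miR-122. The miRNA values are named TPM by the authors, but dividing them by the value of a single read, found for each library, gave whole reads throughout (within 0.1 read). The recovered miRNA reads numbered between 8715002 and 10437675 per library, and the recovered mRNA reads between 22482241 and 37555696, with both old mRNA libraries shallower than both young ones. The miRNA totals add up the reads of the 883 names, and a read that matches several names can be in them more than once. They exceed the mapped reads that follow from the clean reads and alignment rates the study states for the small RNA libraries. The sum behind each share is therefore a sum over names and not a number of distinct reads. A share is the value of a row over the summed values of the 883 names in the same library.

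Tissue identity was checked with markers. Of 10 hepatocyte mRNAs listed, 9 had an identifier, and albumin (ALB) stood at 29468, 35205, 16534 and 23978 CPM (reads per 1000000) in young replicates 1 and 2 and old replicates 1 and 2. The 9 mRNAs together came to 50031 and 58357 CPM in the young and to 35128 and 43320 CPM in the old livers, and 3 of them were lower in both old livers than in both young ones, as were 25% of all mRNAs. The mRNA values summed to between 346173 and 428910 per library and not to 1000000, with both old sums below both young ones. CPM values below are not divided by the sum of their library unless this is stated. Over this sum the 9 mRNAs made up 12.2% and 13.6% in the young and 9.62% and 12.5% in the old livers, so that the ages overlapped. None of the 9 was called between the ages. Skeletal muscle mRNAs were near 0, with at most 2.2 CPM summed over the 2 that had an identifier.

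The 5' arm was the most abundant miRNA of all 4 livers. It had 3436138 and 2707347 reads in young replicates 1 and 2, and 3137804 and 3500897 reads in old replicates 1 and 2. These reads made up 32.9% and 31.1% of the summed values in the young and 31.8% and 38.4% in the old livers. Old replicate 2 was the highest, and old replicate 1 lay between the young livers, so the ages overlapped. The mean share was 32.0% ± 1.31 (SD, n = 2) in young and 35.1% ± 4.61 (SD, n = 2) in old livers, a difference of 3.11 percentage points (exact permutation test, two-sided, p = 0.667). Without old replicate 2 the difference was -0.146 percentage points. Intervals from counting were narrow beside this spread: the 95% Wilson interval ran from 32.89% to 32.95% in young replicate 1 and from 38.33% to 38.40% in old replicate 2, and such intervals cover counting error only.

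**Figure D1:**
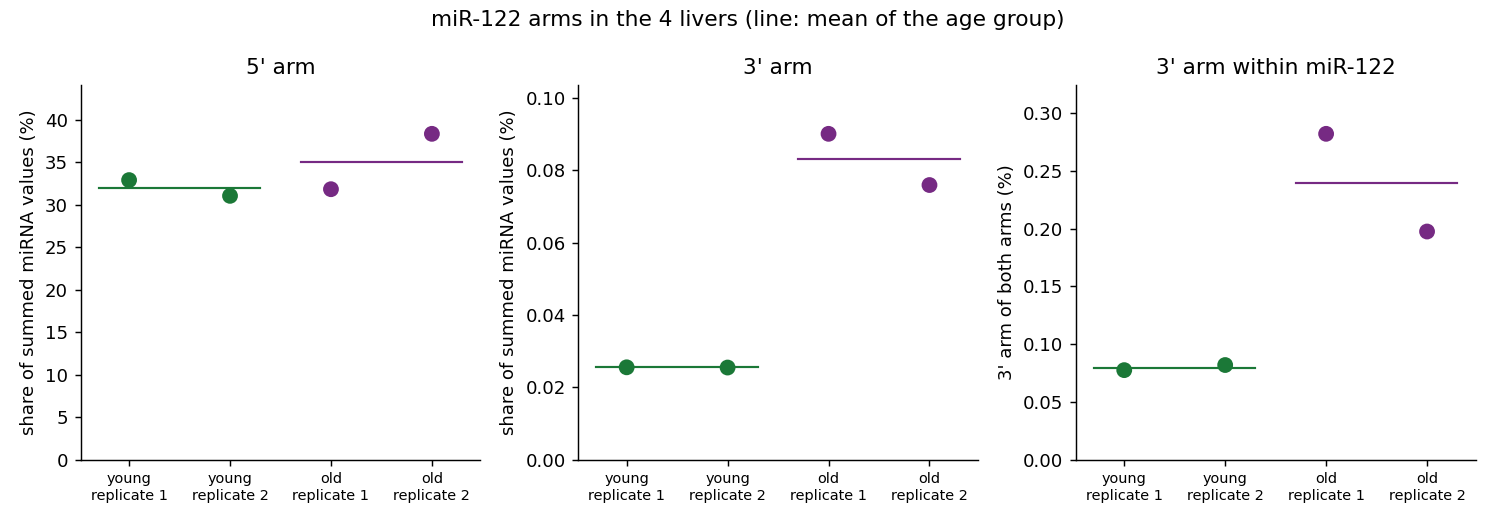
Share of the miR-122 arms in each liver (points) with the mean of each age (lines), as a percentage of summed miRNA values for the 5' and 3' arm and as a percentage of both arms in the panel on the right. The 5' arm lies between 31.1% and 38.4% with the ages overlapping, and the 3' arm is higher in both old livers.

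The deposited values of the 5' arm, scaled by the authors to a total that is not stated, were 4583856 and 2604957 in the young and 3567829 and 4163810 in the old livers. If the values are taken as reads per 1000000 of that total, the 5' arm alone held 2.60 to 4.58 reads for each read of the total. The young livers were the extremes of this series and enclosed both old livers. In the fit over all 867 names above 0 in at least 2 libraries (limma on log2(value + 1), Benjamini-Hochberg adjustment), the log2 fold change from young to old was 0.16 with a standard error of 0.62 and an adjusted p of 0.943. It was -0.048 when the values were scaled by TMM factors, so no direction is given for the 5' arm.

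The next most abundant names were far below the 5' arm. miR-194-5p, a miRNA that is also rich in hepatocytes, held 8.56% and 9.17% in the young and 6.34% and 3.12% in the old livers. ssc-let-7a, a broadly expressed miRNA, held 3.58% and 3.96% in the young and 4.88% and 7.33% in the old livers. For both names the ages did not overlap, in opposite directions. In the order of mean share came then ssc-miR-194a, ssc-miR-26a, miR-125b-5p, ssc-miR-192, ssc-miR-101, miR-29a-3p, ssc-miR-99a and ssc-miR-143-3p, with mean shares from 4.25% down to 1.88%. miR-194-5p stood at 1.59, 1.60, 1.60 and 1.62 times ssc-miR-194a in the 4 libraries, so these names may hold some of the same reads.

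**Figure D2:**
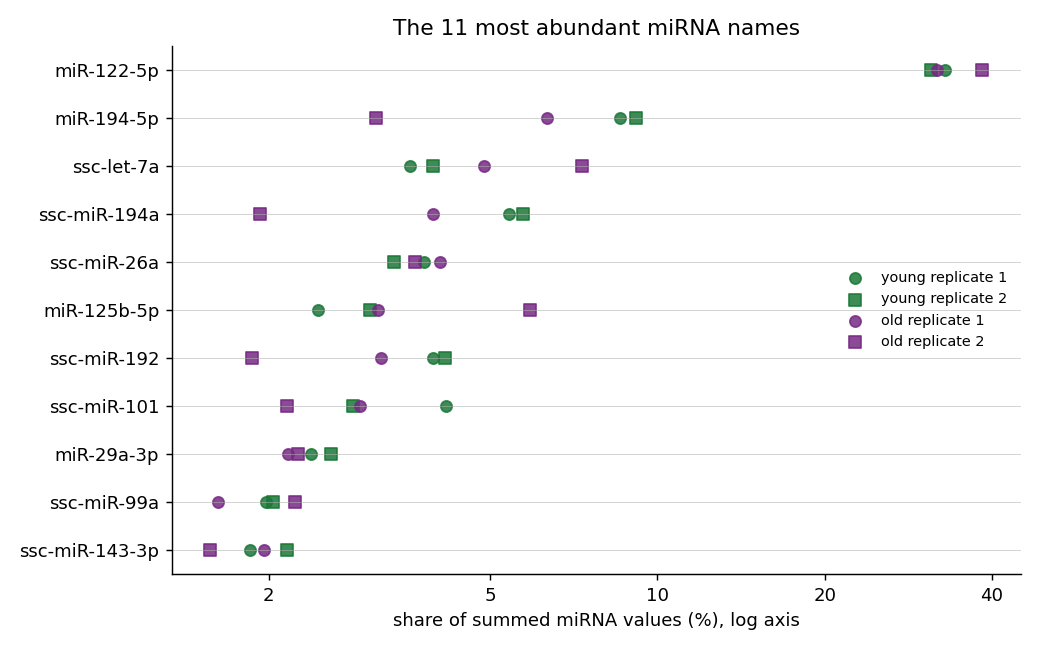
Share of summed miRNA values (logarithmic axis) of the 11 most abundant miRNA names in each library. miR-122-5p is apart from all other names in every library, and miR-194-5p is second in all libraries but old replicate 2, where it is in place 5.

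The lead of the 5' arm over the next name was wider in the old livers. It was 3.84 and 3.39 times the next name in the young livers, which was miR-194-5p in both. In the old livers it was 5.03 times miR-194-5p in old replicate 1 and 5.24 times ssc-let-7a in old replicate 2. The ages did not overlap (exact permutation test, two-sided, p = 0.333, the smallest possible). The Benjamini-Hochberg adjusted value over the 11 single quantities compared in this way was 0.524. The direction depended on the name compared. Over miR-194-5p the ratio was 3.84 and 3.39 in the young and 5.03 and 12.3 in the old livers. Over ssc-let-7a it was 9.19 and 7.85 in the young and lower, at 6.52 and 5.24, in the old livers. Over all other miRNAs together the ages overlapped, with ratios of 0.491 and 0.451 in the young and 0.468 and 0.623 in the old livers.

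The summed share of other miRNAs listed here as rich in hepatocytes was lower in both old livers, although its names differed in both directions. That these names come from hepatocytes in these livers was not tested. The names of miR-192, miR-194, miR-148a, miR-101 and miR-30 together, 20 in all, held 27.1% and 25.7% of the summed values in the young and 20.6% and 11.7% in the old livers. Old replicate 2 was the lowest. miR-194-5p and ssc-miR-194a made up 13.96% and 14.89% of the summed values in the young and 10.3% and 5.04% in the old livers, and the names other than these came to 13.1% and 10.9% in the young and 10.3% and 6.65% in the old livers. Of the 20 names, 8 had a log2 fold change above 0 and 12 below 0 (limma). The ages did not overlap for 3 lower names and 1 higher name, where 16.1% and 28.3% of all names were so placed. The 5' arm was 1.22 and 1.21 times this sum in the young livers and 1.54 and 3.28 times in the old livers (exact permutation test, two-sided, p = 0.333 for either quantity; adjusted 0.524). In such tissue samples, fewer cells of a type and less RNA per cell cannot be told apart.

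The 3' arm was rare and was higher in both old livers. It had 2668 and 2222 reads in the young livers against 8877 and 6930 in the old livers. Its share was 0.0256% and 0.0255% in the young and 0.0901% and 0.0759% in the old livers, with an old mean 3.25 times that of the young (exact permutation test, two-sided, p = 0.333; adjusted 0.524). By abundance it took place 108 and 104 in the young and 71 and 74 in the old livers, of 808 to 816 names above 0.

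The fit over all miRNAs did not call the 3' arm. Its deposited values were 3559 and 2138 in the young and 10094 and 8242 in the old livers, which did not overlap. The log2 fold change was 1.72 with a standard error of 0.61, an unadjusted p of 0.0231 and an adjusted p of 0.328 (limma). As background, 0 of 867 names (0%) were called at an adjusted p under 0.05 and an absolute log2 fold change above 1, while 72 higher and 31 lower names had an unadjusted p under 0.05 (8.3% and 3.58%). The ages did not overlap for 28.3% of names in the direction of higher values in old livers and for 16.1% in the other direction. A log2 fold change at least as large as that of the 3' arm was found for 63 names (7.27%). Among the 154 names with a mean deposited value of at least 1000 there were 7, the 3' arm included.

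Across tests on the recovered reads the call differed. The exact test of edgeR called the 3' arm, with a log2 fold change of 1.52 and an adjusted p of 0.0104, among 26 names (3%), 15 in the direction of old livers (1.73%) and 11 in that of young livers (1.27%). The quasi-likelihood test of edgeR gave the same log2 fold change with an adjusted p of 0.169 and called 0 names (0%). The direction did not depend on the scaling: the log2 fold change lay between 1.52 and 1.77 over 12 alternatives, and between 1.36 and 2.09 with each library left out in turn. Scaling moved the median of all names from 0.181 as deposited to -0.008 with TMM factors.

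**Figure D3:**
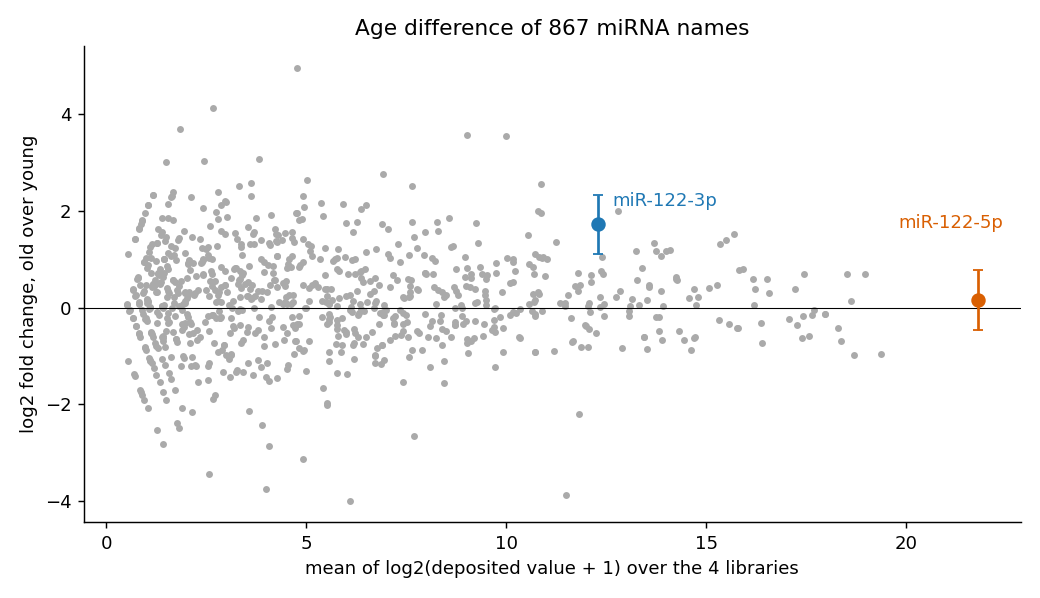
Log2 fold change from young to old livers against the mean of log2(deposited value + 1) for 867 miRNA names (grey), with both miR-122 arms in colour and bars of 1 standard error. miR-122-5p is the point of highest abundance at 0.16, and miR-122-3p is at 1.72.

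The balance of the arms within miR-122 is free of the scaling of the table. The 3' arm made up 0.0776% of both arms in young replicate 1 (95% Wilson interval 0.0747% to 0.0806%) and 0.0820% in young replicate 2 (0.0787% to 0.0855%). It made up 0.282% in old replicate 1 (0.276% to 0.288%) and 0.198% in old replicate 2 (0.193% to 0.202%). In other terms, 1288 and 1218 reads of the 5' arm were found per read of the 3' arm in the young and 353 and 505 in the old livers. The young livers lay close together and the old livers apart from each other, with no overlap between the ages and an old mean 3.01 times that of the young (exact permutation test, two-sided, p = 0.333; adjusted 0.524).

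Other hairpins gave the background for this balance. Of 109 hairpins with both arms named, 66 had at least 10 reads of each arm in every library. The less abundant arm was relatively higher in both old livers for 28.8% of them and lower for 33.3%, and the median change of its log2 ratio to the other arm was -0.03. For miR-122 the change was 1.57, the second highest of the 66 after miR-628. Only 3 of the hairpins had a less abundant arm with a lower share than that of miR-122, and the median of this share over the 66 was 4.0%.

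A fit of the arm ratio over these hairpins was added after the values of the miR-122 arms had been seen. With limma, the change of 1.57 had a standard error of 0.33 and an adjusted p of 0.0462, and 6 of 66 hairpins (9.09%) were called, 4 of them with the less abundant arm higher in old livers (6.06%): miR-628, miR-122, miR-7134 and miR-532. This call stood close to the threshold. The adjusted p was 0.0564 in a first version with 89 hairpins, which also paired names without an arm (5.62% called) and was replaced, after its value had been seen, since some of those pairs were names of the same arm. It was 0.136 with a variance trend on abundance. Without young replicate 1 or 2 it was 0.457 or 0.508, at a change of 1.53 or 1.61, whereas without old replicate 1 or 2 it was 0.0104 or 0.0115. Without young replicate 1 or 2 no hairpin was called, and without old replicate 1 there were 24.

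**Figure D4:**
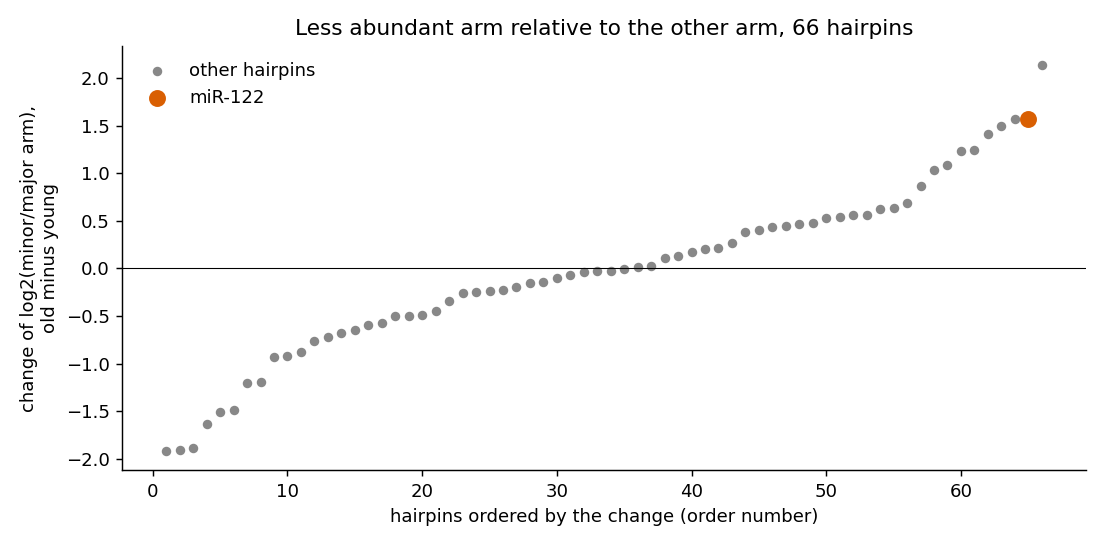
Change from young to old livers in the log2 ratio of the less abundant to the more abundant arm for 66 hairpins, ordered from lowest to highest. miR-122, at 1.57, has the second highest change, and the hairpins lie on both sides of 0.

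Some miRNAs had a profile over the 4 libraries like that of the arms. Likeness was the Euclidean distance between log2(value + 1) centred over the libraries, among the other names with a mean value of at least 1000. Nearest to the 5' arm were miR-151a-3p (distance 0.131, Pearson's r 0.980), ssc-miR-361-5p, miR-125b-2-3p, ssc-miR-27a and miR-200a-3p (0.248). miR-151a-3p held 0.109% and 0.0977% in the young and 0.108% and 0.116% in the old livers, again with overlapping ages. Nearest to the 3' arm, in a list added later, was let-7g-5p (distance 0.352, Pearson's r 0.992), at 0.280% and 0.252% in the young and 0.734% and 0.633% in the old livers. With 4 libraries that share the scaling of the table these coefficients are descriptions. After division by the summed values of each library, Pearson's r with the 5' arm was 0.837 for miR-151a-3p and 0.327 for miR-200a-3p. That of let-7g-5p with the 3' arm was then 0.997.

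mRNAs known as direct targets of miR-122 differed in both directions. Of 26 listed, 22 had an identifier and were tested, and 0 were called by limma or by either edgeR test, against a background of 0 of 16898 mRNAs (0%) with limma, 0 with the quasi-likelihood test and 534 (3.16%) with the exact test, 2.7% higher and 0.456% lower in old livers. The log2 fold change was above 0 for 13 and below 0 for 9, with a median of 0.038 beside -0.023 over all mRNAs. The ages did not overlap for 7 targets higher in old livers and 5 lower, where 24.4% and 25% of all mRNAs were so placed. At an unadjusted p under 0.05 there were 3 higher and 2 lower targets, where 6.78% and 8.93% of all mRNAs were so placed (1145 and 1509). The median of the targets was 0.77 on the scale of edgeR, where that of all mRNAs was 0.121, and the pseudocount of 1 used with limma shrinks the fold changes of low mRNAs. With the exact test of edgeR 15 targets were above 0 and 7 below, where 54.6% of all mRNAs were above 0.

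Among the targets higher in both old livers, PTPN1, a phosphatase that dampens insulin signalling, had 4.13 and 1.04 CPM in the young and 9.28 and 7.82 CPM in the old livers (log2 fold change 1.56, SE 0.54, and 0.89 without young replicate 2). AACS, which activates acetoacetate for lipid synthesis, had 3.50 and 5.11 CPM in the young and 9.99 and 8.10 CPM in the old livers (0.93, SE 0.23). ADAM17, the protease that releases tumour necrosis factor from the cell surface, had 0.621 and 0.555 CPM against 2.05 and 1.18 CPM (0.70, SE 0.22). These genes were separated between the ages, with adjusted p of 0.333, 0.257 and 0.303 (limma). The transcription factors CUX1 and SRF followed with log2 fold changes of 0.65 (0.36 without old replicate 2) and 0.50. CUX1 stood at 1.03 and 0.601 CPM in the young and 1.32 and 2.48 CPM in the old livers, and SRF at 1.08 and 0.913 against 1.80 and 1.82 CPM.

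Among the targets lower in both old livers, CCNG1, which encodes cyclin G1, had 21.2 and 22.5 CPM in the young and 7.15 and 10.8 CPM in the old livers (log2 fold change -1.22, SE 0.24, limma adjusted p 0.230). P4HA1, a hydroxylase of collagen prolines, had 5.69 and 16.2 CPM in the young and 5.22 and 3.68 CPM in the old livers (-0.99, SE 0.57). NDRG3 had 3.54 and 3.54 CPM against 1.77 and 2.19 CPM (-0.61, SE 0.13). The P4HA1 difference rested largely on young replicate 2, and without it the log2 fold change was -0.31. RHOA, a small GTPase of the cytoskeleton, and FUT8, which adds core fucose to glycoproteins, had log2 fold changes of -0.60 and -0.16. Over the summed mRNA values of each library the ages overlapped for FUT8 and P4HA1. With the exact test of edgeR, FUT8 had a log2 fold change of 0.008. GYS1, a glycogen synthase and one of the 5 targets with the highest mean, had 15.8 and 19.1 CPM in the young and 8.01 and 17.6 CPM in the old livers, which overlapped.

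**Figure D5:**
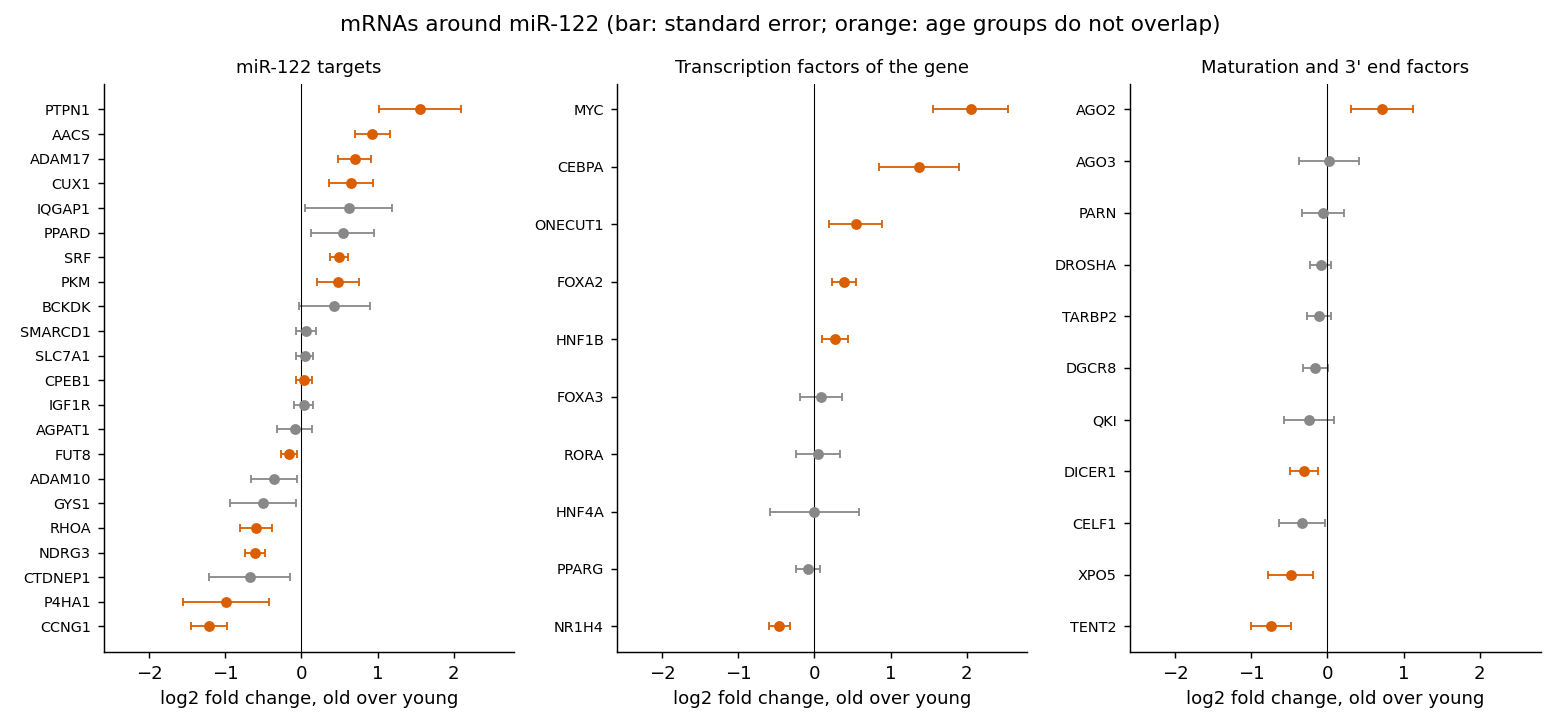
Log2 fold change from young to old livers (limma on log2(CPM + 1), bars of 1 standard error) of tested miR-122 targets, transcription factors of its gene and factors of its maturation. Orange points mark genes whose ages do not overlap, none of the genes was called, and 1 transcription factor is not shown.

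Transcription factors that drive the miR-122 gene, with MYC, which represses it, were tested for 11 of 14 listed. None was called by limma or either edgeR test. The log2 fold change was above 0 for 8 and below 0 for 3 (median 0.265 beside -0.023 over all mRNAs), and the ages did not overlap for 6 higher and 1 lower, where 24.4% and 25% of all mRNAs were so placed. With the exact test of edgeR 9 were above 0 and 2 below (median 0.69 beside 0.121 over all mRNAs), where 54.6% of all mRNAs were above 0. HNF4A, the nuclear receptor central to hepatocyte identity, ranged widely within each age, with 59.0 and 22.1 CPM in the young and 43.0 and 30.4 CPM in the old livers. Its log2 fold change was 0.00 with a standard error of 0.58.

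MYC had 0.653 CPM in young replicate 1, was listed at 0 in young replicate 2, and had 2.78 and 6.54 CPM in the old livers (log2 fold change 2.05, SE 0.49, limma adjusted p 0.255). CEBPA, a factor of hepatocyte differentiation, had 1.45 CPM and was listed at 0 in the young livers, and had 3.43 and 2.69 CPM in the old livers (1.37, SE 0.53, and 0.72 without young replicate 2). Young replicate 2 listed 0 for both. The other factors higher in both old livers that are named here were ONECUT1 (0.54, and 0.12 without young replicate 2) and FOXA2 (0.39). NR1H4, the bile acid receptor FXR, was lower in both old livers, at 22.0 and 21.3 CPM in the young and 16.8 and 14.2 CPM in the old livers (-0.46, SE 0.14, limma adjusted p 0.293). FOXA3 and RORA overlapped between the ages, with log2 fold changes of 0.09 and 0.05.

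Factors that cut, load or trim miRNAs were tested for 11 of 13 listed, and none was called by limma or either edgeR test. The log2 fold change was above 0 for 2 and below 0 for 9, with a median of -0.161 beside -0.023 over all mRNAs, and the ages did not overlap for 1 higher and 3 lower, where 24.4% and 25% of all mRNAs were so placed. This split depended on the scaling: the median was -0.018 with TMM factors and -0.022 with the exact test of edgeR, where 5 were above 0 and 6 below, and it was -0.034 without young replicate 1. AGO2, the Argonaute protein that holds the guide strand, had 2.10 and 2.28 CPM in the young and 6.40 and 2.69 CPM in the old livers (log2 fold change 0.71, SE 0.41, limma adjusted p 0.507), with old replicate 1 far above the others and a log2 fold change of 0.21 without it. TENT2, the poly(A) polymerase that adds an adenosine to the 3' end of miR-122, had 5.81 and 7.09 CPM in the young and 4.39 and 2.66 CPM in the old livers (-0.74, SE 0.26, limma adjusted p 0.339). Both old livers were below both young ones.

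XPO5, which exports hairpin precursors from the nucleus, had 6.62 and 3.99 CPM in the young and 3.97 and 2.91 CPM in the old livers (log2 fold change -0.48). DICER1, which cuts the hairpin into its arms, had 1.86 and 1.55 CPM in the young and 0.926 and 1.46 CPM in the old livers (-0.31). For both the nearest young and old livers were close, and the ages were only just apart. Over the summed mRNA values of each library the ages overlapped for both genes. The RNA-binding proteins QKI and CELF1 and the DICER1 partner TARBP2, which had the highest means of this list together with TENT2 and XPO5, overlapped between the ages, with log2 fold changes of -0.25, -0.33 and -0.11.

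In the RefSeq order of genes on Sscrofa11.1, which was used here for neighbours only, the miR-122 gene lies between ALPK2 and NEDD4L, with MALT1 and ATP8B1 next to these, a list added after the others. ALPK2 was near 0 in all livers. MALT1, a signalling protein of lymphocytes, had 1.32 and 2.48 CPM in the young and 0.292 and 0.237 CPM in the old livers (log2 fold change -1.17, SE 0.26, limma adjusted p 0.246). NEDD4L, a ubiquitin ligase, and ATP8B1, a phospholipid flippase of the bile canaliculus, were also lower in both old livers (-0.14 and -0.60). NEDD4L was only just apart, at 0.653 and 0.832 CPM in the young and 0.520 and 0.640 CPM in the old livers. Over the summed mRNA values of each library its ages overlapped. The ages did not overlap for 3 lower genes of these 4, where 25% of all mRNAs were so placed. None of the 4 was called.

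Markers of other cells were read beside the difference of the 3' arm. The 8 muscle miRNA names, among them ssc-miR-1, together held 0.0173% and 0.0158% of the summed values in the young and 0.0485% and 0.0930% in the old livers, and 5 of the 8 were higher in both old livers, where 28.3% of all names were so placed. Some of the 8, such as ssc-miR-1 and miR-1-3p, are names of the same miRNA. The 7 biliary and epithelial names held 0.0629% to 0.0664% in the young and 0.0756% to 0.162% in the old livers. Sums of leukocyte, endothelial, stromal and erythroid names reached at most 0.498%, 1.67%, 6.87% and 0.383%. Of the leukocyte sums both old ones, at 0.498% and 0.262%, were above both young ones, at 0.199% and 0.255%. The summed macrophage mRNAs were 23.0 and 22.3 CPM in the young and 35.3 and 42.6 CPM in the old livers, with 2 of the 3 higher in both old livers, where 24.4% of all mRNAs were so placed. The summed erythroid mRNAs were 622 and 429 CPM in the young and 306 and 405 CPM in the old livers. Over the summed mRNA values of each library the ages overlapped for this erythroid sum. None of these names or mRNAs was called by limma, which called 0 of 867 names and 0 of 16898 mRNAs. Neither edgeR test called any of these mRNAs. Of the 867 miRNA names, the quasi-likelihood test called 0 and the exact test called 26 (3%). Which of the marker names are among the 26 is not given here. The study, which used edgeR, reported the muscle miRNA miR-206 as up-regulated with age. With limma ssc-miR-206 had a log2 fold change of 4.97 and an adjusted p of 0.098. The part of these markers in the difference of the 3' arm was not tested.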

How the data were processed

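Small RNA-seq and rRNA-depleted RNA-seq libraries of 4 livers were used, with samples grouped by the age in their labels. For the miRNA signal values the authors used mirdeep2 and miRBase. They name the values TPM, and neither the total used for scaling nor the aligner and build for small RNAs is given in the sources used here. The mRNA values, deposited as TPM, had 1 step per library without gene length and were taken as CPM. The submitters' notes name TopHat2 2.0.14, StringTie 1.2.3 and Salmon 0.6.0, and the reads were aligned to Sscrofa10.2. The lncRNA and circRNA tables were not used here.

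Fits were made in R 4.3.3 (limma 3.58.1, edgeR 4.0.16) and shares and exact tests in Python 3.11.15 (scipy 1.17.1). For limma on log2(value + 1), a feature had to be above 0 in 2 or more libraries, with calls at an adjusted p under 0.05 and an absolute log2 fold change above 1. As the values used here are not counts, the exact test and quasi-likelihood test of edgeR were alternatives on recovered reads. The pseudocount understates fold changes of low features. Fits were tested on simulated data with 200 changed features. Names were counted once where values lay within 1% of the ssc name of equal stem in every library. mRNA lists were joined by symbol, which 11654 of 21607 identifiers have. Named genes were, per list, up to 5 in each direction with the largest fold change among those without overlap and the 5 with the highest mean, and, for miRNAs, the 10 other most abundant names and the 5 most like the 5' arm. Members, lists and tests were chosen with earlier results of these data known. The values of 1 transcription factor that this rule names are not reported here.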

Additional observations from a re-analysis of the deposited data

How the results depend on the processing

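The share difference of the 5' arm was -0.146 to 6.37 percentage points with each library left out, and 1.74 to 3.29 under 6 other ways of counting names. The log2 fold change of miR-122-5p and ssc-miR-122 turned to -0.048 with TMM factors and with both edgeR tests, and ranged from -0.25 to 0.57 with a library left out. For miR-122-3p it was 1.52 and passed the threshold with the exact test, and failed it under 11 other alternatives, with 1.36 to 2.09 when a library was left out. The arm share difference was 0.118 to 0.202 percentage points with a library left out. The arm ratio change of 1.57 lost its call with armless names included and with a variance trend, and was 1.31 to 1.82 with a library left out, losing its call when either young liver was left out. This fit and its alternatives were chosen after seeing the data. The number of miRNAs called, 0 in the report, was 18 with a mean value of at least 10, 10 with a robust variance trend and 26 with the exact test. The exact test called 457 mRNAs higher and 77 lower, where limma called 0. The median of the targets, 0.038, was 0.26 with a pseudocount of 0.1, 0.25 with a mean value of at least 1 and 0.77 with either edgeR test. That of the transcription factors, 0.265, was 0.46 with a pseudocount of 0.1 and 0.69 with either edgeR test, and 0.12 to 0.39 with a library left out. The causes of these changes were not tested.

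Replicate numbers were treated as names only. Same-numbered livers deviated together with a correlation of -0.0158 over miRNAs and 0.0902 over mRNAs. These single coefficients over all features do not test for a batch shared by same-numbered livers. With the replicate block, the log2 fold change was 0.16 for the 5' arm (adjusted p 0.934) and 1.72 for the 3' arm (0.428), 0 miRNAs were called, and the arm ratio had an adjusted p of 0.0105 with 15 hairpins called in place of 6. With a library left out, the lone liver of an age is assumed to vary like the other age. Only 2 livers per age limit every comparison, and counting error is small for both arms.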
